A study of Equus caballus with 12 samples.

Results

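The miR-200 family (eca-miR-200a, eca-miR-200b, eca-miR-429, eca-miR-200c and eca-miR-141) and eca-miR-205 were followed through small RNA libraries of horse lung, heart and liver. The 6 members were taken by name, with no cutoff on a measured value, from a table of 629 entries (294 known horse miRNAs and 335 without a name, given as bare sequences). They were chosen with earlier results of these data known. All 6 passed the filter on low values and belong to the 256 known miRNAs tested. The libraries came from 4 healthy cold-blooded stallions, aged 1 to 2 years, and each horse (27, 30, 32 and 34) gave 1 library per tissue: caudal lobe of the right lung, left ventricle of the heart and right lobe of the liver. The values are normalized counts, reads divided by a scaling factor of each library.

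In human and mouse, the miR-200 family is known as a set of miRNAs of epithelial cells. It holds down ZEB1 and ZEB2, the repressors of the adhesion gene CDH1 (E-cadherin), and the ZEB factors in turn repress the genes of the family. The genes lie in a pair of clusters, and the members also fall into a pair of seed groups that cut across the clusters: miR-200a and miR-141 share a seed, and miR-200b, miR-200c and miR-429 share another that differs from it at a single base. miR-205 belongs to neither cluster, is known from the basal cells of stratified and airway epithelium, and also acts on ZEB1 and ZEB2. In lung, epithelial cells line airways and alveoli, in liver hepatocytes and bile duct cells are epithelial, and the muscle of the ventricle is not.

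The RefSeq gene table of the horse (assembly TB-T2T, another than the EquCab3.0 genome of the study, so that only neighbours are given) holds the same arrangement. MIR429, MIR200A and MIR200B followed one another, with MIR3548 overlapping MIR200A and the uncharacterised LOC138921414 overlapping MIR429 and MIR200A. MIR200C and MIR141 were direct neighbours between the protein-coding genes PTPN6 and PHB2. MIR205 overlapped LOC138924036. Reads of overlapping genes, and reads that match several members of a family as alike as this one, could be split between names by the counting, and the strand setting of the count is not given in the sources used here.

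The table holds 3536536 to 7560746 reads per lung library, 8113895 to 9355513 per heart library and 3066869 to 8595569 per liver library. A listed 0 means that fewer than 6 reads were found, a limit of 3.71 to 11.1 normalized counts depending on the library. The labelled tissues were set against miRNAs known from their main cells. The 6 striated muscle miRNAs summed to 5460419 to 8413935 normalized counts in heart, although miR-208a was above 0 in 1 of the 4 hearts only. The 3 hepatocyte miRNAs summed to 983907 to 1394321 in liver, and the 3 miRNAs of multiciliated cells found in the table to 18721 to 51192 in lung. In all 12 libraries the list of the labelled tissue had the highest sum of the 3 lists.

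The family stood highest in lung, lower in liver and lowest in heart. Its 5 members summed to 66445 to 83038 normalized counts in lung, 287 to 1008 in heart and 5364 to 7487 in liver. The lung mean was 72812 ± 7178, the heart mean 643 ± 369 and the liver mean 6400.1 ± 966 (SD, n = 4 each), so that lung stood 113-fold above heart and 11.4-fold above liver. As a share of all reads in the table, which does not depend on the scaling factors, the 5 members made up 1.34 to 1.79% in lung, 0.00238 to 0.00896% in heart and 0.0945 to 0.139% in liver. In heart, eca-miR-200b, eca-miR-200a and eca-miR-200c were above 0 in 4 of 4 libraries and ranked 127, 148 and 156 of the 256 tested miRNAs by their mean, whereas eca-miR-429 and eca-miR-141 ranked 231 and 246. In bulk tissue, fewer cells of a type and less RNA per cell cannot be told apart.

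**Figure D1:**
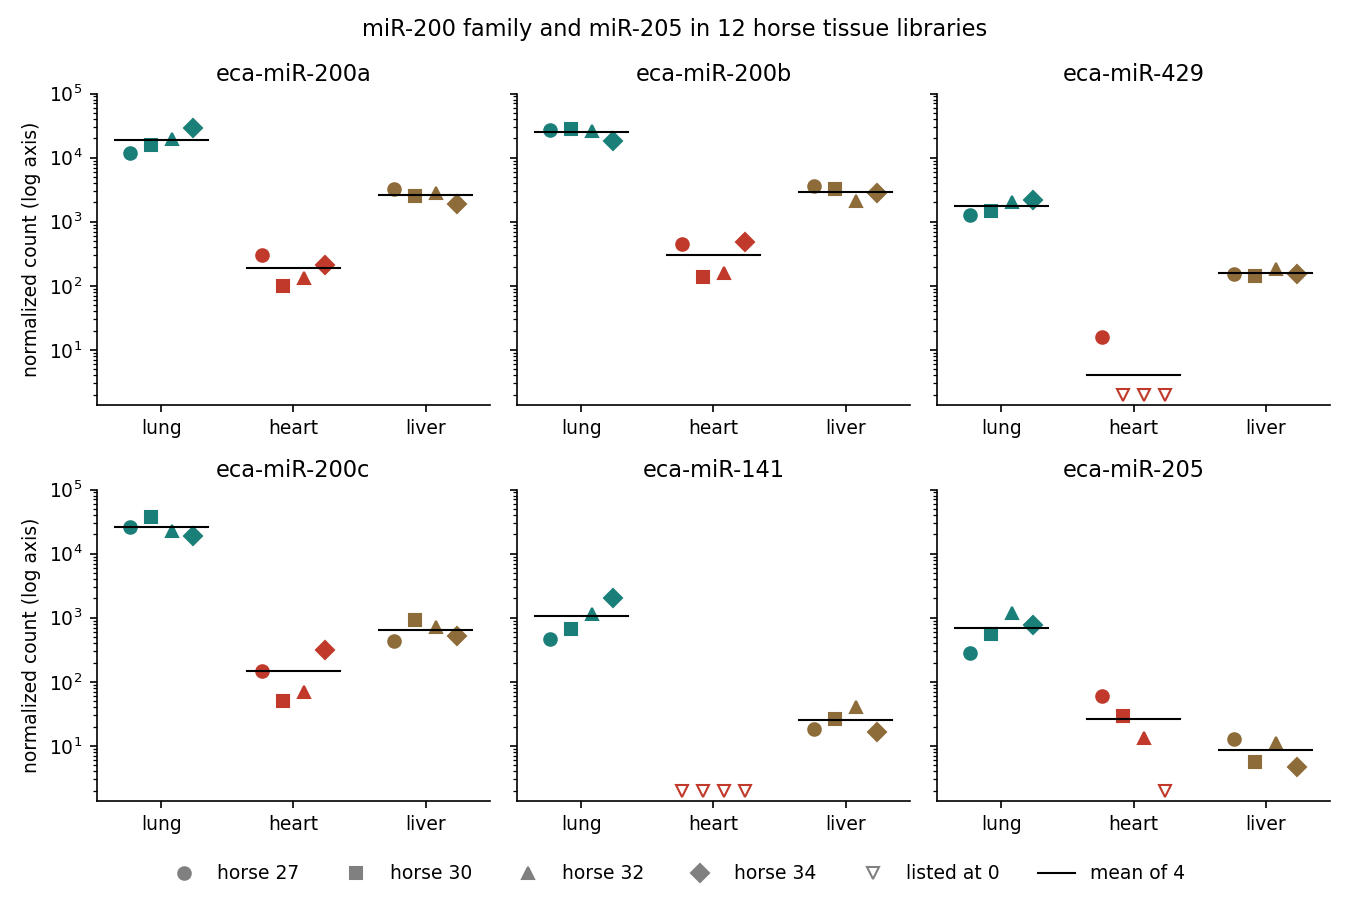
Normalized counts of the 6 members (log axis) in lung, heart and liver. Each symbol is 1 library, its shape gives the horse, lines mark the mean of 4, and open triangles at the bottom stand for libraries listed at 0. Lung lies above heart and liver for every member, miR-141 is at 0 in all 4 hearts, and miR-205 is the member whose heart and liver values overlap.

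In the cluster of miR-200b, miR-200a and miR-429, the first 2 were abundant in lung, and all 3 kept a clear level in liver. By their mean in lung they ranked 30, 35 and 84 of the 256 tested miRNAs. eca-miR-200b had 26595, 28325, 26228 and 18134 normalized counts in the lungs of horses 27, 30, 32 and 34, 444, 137, 161 and 481 in their hearts, and 3598, 3280, 2105 and 2773 in their livers. eca-miR-200a, which carries the other seed, had 11943, 15903, 19587 and 28969 in lung, 303, 99.6, 134 and 212 in heart, and 3287, 2521, 2808 and 1909 in liver. Neither showed any overlap between tissues, and for both the order was lung, liver, heart in all 4 horses. eca-miR-429, the least abundant of the cluster, had 1254, 1457, 2058 and 2144 in lung, 16.2, 0, 0 and 0 in heart, and 154, 145, 181 and 154 in liver. Its only heart value rests on 13 reads (95% Poisson interval 6.92 to 22.2, counting error only).

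In the cluster of miR-200c and miR-141, both members stood much lower in liver relative to lung. eca-miR-200c had 26187, 36682, 22867 and 18622 normalized counts in lung, 148, 50.5, 69.3 and 315 in heart, and 429.2, 924, 718 and 512 in liver. It was thus as abundant as eca-miR-200b in lung but well below it in every liver, and its highest heart value, in horse 34, came near the lowest liver value. eca-miR-141 had 465, 671, 1139 and 2017 in lung, 0 in all 4 hearts, and 18.5, 26.6, 40.4 and 16.5 in liver. The liver values of eca-miR-141 rest on 10 to 55 reads.

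eca-miR-205, the basal cell miRNA, was the one member for which heart did not lie below liver. It had 280, 561, 1188 and 760 normalized counts in lung, 60.9, 29.7, 13.4 and 0 in heart, and 12.9, 5.63, 11.0 and 4.62 in liver. The heart values correspond to 49, 20, 12 and fewer than 6 reads and the liver values to 7, 7, 15 and 7 reads. Among the livers, the counting intervals in reads overlap (2.81 to 14.4 for 7 reads and 8.40 to 24.7 for 15). The interval of the 49 reads in the heart of horse 27 (36.3 to 64.8) lies above them, before scaling. Lung was above both other tissues in every horse, whereas heart and liver overlapped.

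The tissues were compared with limma on log2(normalized count + 1) over all 256 tested miRNAs, and a miRNA was called at an adjusted p (Benjamini-Hochberg) under 0.05 together with a log2 fold change of 1 or more in either direction. In lung vs heart, all 6 members were called higher in lung and all 6 had lung values above every heart value. Over all tested miRNAs, 19.5% were called higher in lung (50, with 49 lower, or 121 and 16 on CPM, the values scaled to one total per library) and 22.7% had lung values above all heart values. The members' median log2 fold change was 7.25, against 0 over all tested.

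With 1 added to each value, the clusters' weakest expressed members had the largest log2 fold changes against heart. This order did not hold with 10 added or on CPM. eca-miR-141 ranked 1 of 256 by log2 fold change (9.85, SE 0.45, adjusted p = 1.2e-08) and eca-miR-429 ranked 2 (9.69, SE 0.79, adjusted p = 1.15e-06). Both estimates rest on hearts at 0 and move with the added constant, to 6.54 and 7.06 when 10 is added in place of 1. Both then lay below eca-miR-200c, which had 7.23 or more under every alternative. On CPM, eca-miR-200c had 8.97, eca-miR-429 8.15 and eca-miR-141 7.62. Without the heart of horse 27, eca-miR-429 moved to 10.72. With the hearts at 0 set to 6 reads, mean lung levels were at least 129-fold higher for eca-miR-141 and at least 165-fold higher for eca-miR-429. eca-miR-200c was 179-fold higher in lung by the means (log2 fold change 7.79, SE 0.51, adjusted p = 1.63e-07) and 292-fold without the heart of horse 34. eca-miR-200a was 102-fold higher (log2 fold change 6.72, SE 0.37, adjusted p = 3.86e-08) and eca-miR-200b 81.2-fold (6.54, SE 0.40, adjusted p = 1.18e-07). eca-miR-205 had the smallest fold of the 6 against heart, at 26.8 (log2 fold change 5.58, SE 1.05, adjusted p = 0.00115), or 48.5 without the heart of horse 27. Its log2 fold change was 6.33 without that heart and 4.35 without the heart of horse 34.

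In lung vs liver, all 6 members were again called higher in lung and none overlapped, where 25.0% of the tested miRNAs were called higher in lung and 25.8% had lung values above all liver values. The members' median log2 fold change was 4.31, against 0.079 over all tested. Here the sizes of the folds followed the gene clusters, although the ratio tests across clusters gave an adjusted p of 0.0857 (exact permutation). The 3 members of the miR-200b cluster stood 7.26-fold (eca-miR-200a), 8.45-fold (eca-miR-200b) and 10.9-fold (eca-miR-429) above liver, with log2 fold changes of 2.81, 3.09 and 3.41 (SE 0.37, 0.40 and 0.79) and adjusted p of 5.09e-05, 4.96e-05 and 0.00301. The pair of the other cluster stood 40.4-fold (eca-miR-200c) and 42.1-fold (eca-miR-141) above liver, with log2 fold changes of 5.35 (SE 0.51, adjusted p = 4.03e-06) and 5.21 (SE 0.45, adjusted p = 2.21e-06). eca-miR-205 had the largest fold of the 6, at 81.5, with a log2 fold change of 6.11 (SE 1.05, adjusted p = 0.000417) that ranked 4 of 256 and moved to 6.71 without horse 27. The folds of the members against heart and against liver share the lung libraries.

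In heart vs liver, the 5 members of the miR-200 family were called lower in heart and did not overlap with liver, where 27.0% of the tested miRNAs were called lower in heart (69, with 51 higher, or 137 and 27 on CPM) and 32.4% had heart values below all liver values. The log2 fold changes were -3.91 for eca-miR-200a (adjusted p = 2.51e-06), -3.45 for eca-miR-200b (adjusted p = 1.59e-05), -6.28 for eca-miR-429 (adjusted p = 2.91e-05), -2.44 for eca-miR-200c (adjusted p = 0.00152) and -4.64 for eca-miR-141 (adjusted p = 3.21e-06), with SE between 0.37 and 0.79. The estimates of eca-miR-429 and eca-miR-141 rest on hearts at 0 and moved to -3.72 and -1.78 when 10 was added in place of 1. With those hearts set to 6 reads, mean liver levels were at least 15.1-fold higher for eca-miR-429 and at least 3.07-fold higher for eca-miR-141. On CPM the added 1 stands for more normalized counts. There the log2 fold changes were -5.01 (eca-miR-200a), -4.59 (eca-miR-200b), -4.63 (eca-miR-429), -3.49 (eca-miR-200c) and -2.51 (eca-miR-141). By the means, liver was 14.1-fold above heart for eca-miR-200a, 9.61-fold for eca-miR-200b and 4.44-fold for eca-miR-200c, the last 7.24-fold without the heart of horse 34. Without the heart of horse 27, the log2 fold change of eca-miR-429 was -7.31. For eca-miR-205 the log2 fold change was 0.53 (SE 1.05, adjusted p = 0.695), with heart higher in 3 of 4 horses, and the call turned on 1 library. Without the heart of horse 34, which was listed at 0, eca-miR-205 was called higher in heart (log2 fold change 1.76, SE 0.61, adjusted p = 0.0335), and without the heart of horse 27 the estimate was -0.22.

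**Figure D2:**
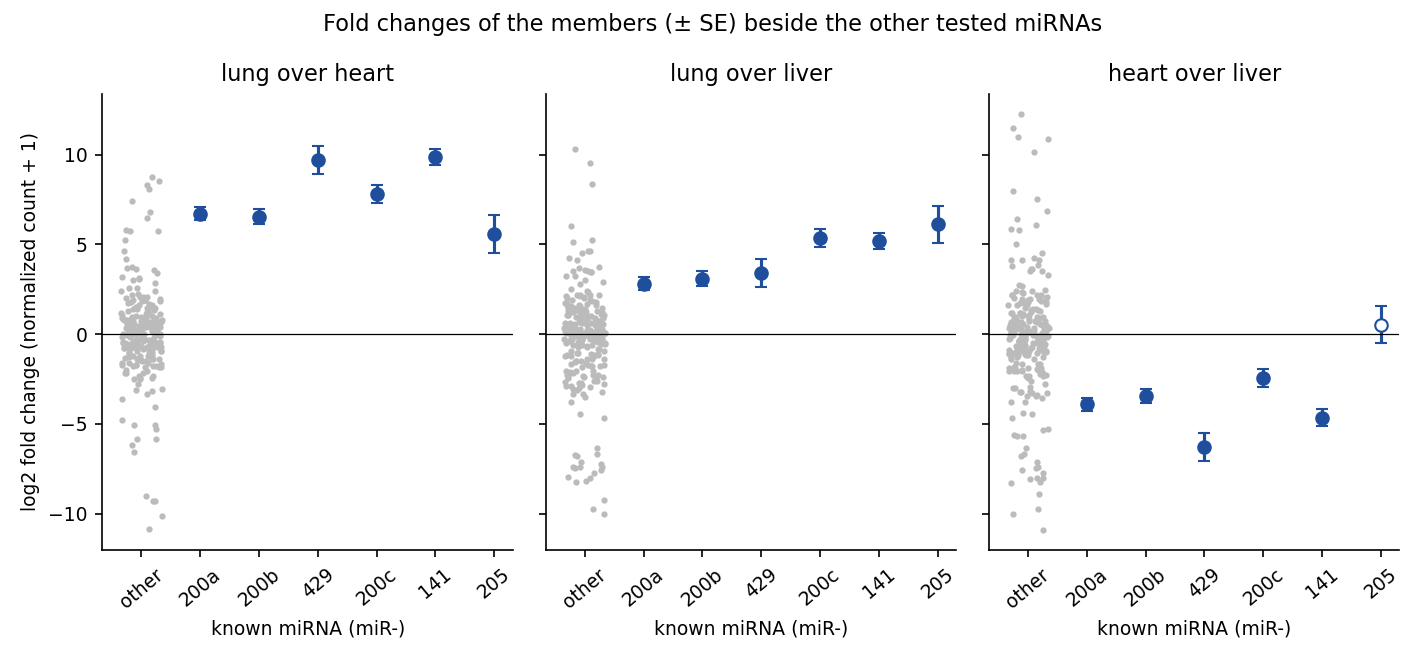
Log2 fold changes of normalized count + 1 from limma for lung over heart, lung over liver and heart over liver. Grey points are the other tested miRNAs, spread sideways for legibility, and blue points are the members with their SE, filled where called and open where not. All 6 members lie above 0 in both lung comparisons, miR-200c, miR-141 and miR-205 lie above the miR-200b cluster against liver, and miR-205 (0.53) is not called in heart over liver.

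The make-up of the family was then read within each library, where the scaling factor cancels. The pair of miR-200c and miR-141 formed 37.0 ± 6.9% of the 5-member sum in lung, 21.0 ± 6.9% in heart and 10.6 ± 3.5% in liver (SD, n = 4), and the miR-200b cluster the rest. eca-miR-200c alone formed 26.6 to 44.2% in lung, 16.2 to 31.2% in heart and 5.73 to 13.4% in liver. In lung the family was thus spread over 3 abundant members, and in liver eca-miR-200a and eca-miR-200b together formed 84.0 to 92.0% of it. The minor members eca-miR-429 and eca-miR-141 formed 1.75 to 3.07% and 0.701 to 2.89% in lung.

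**Figure D3:**
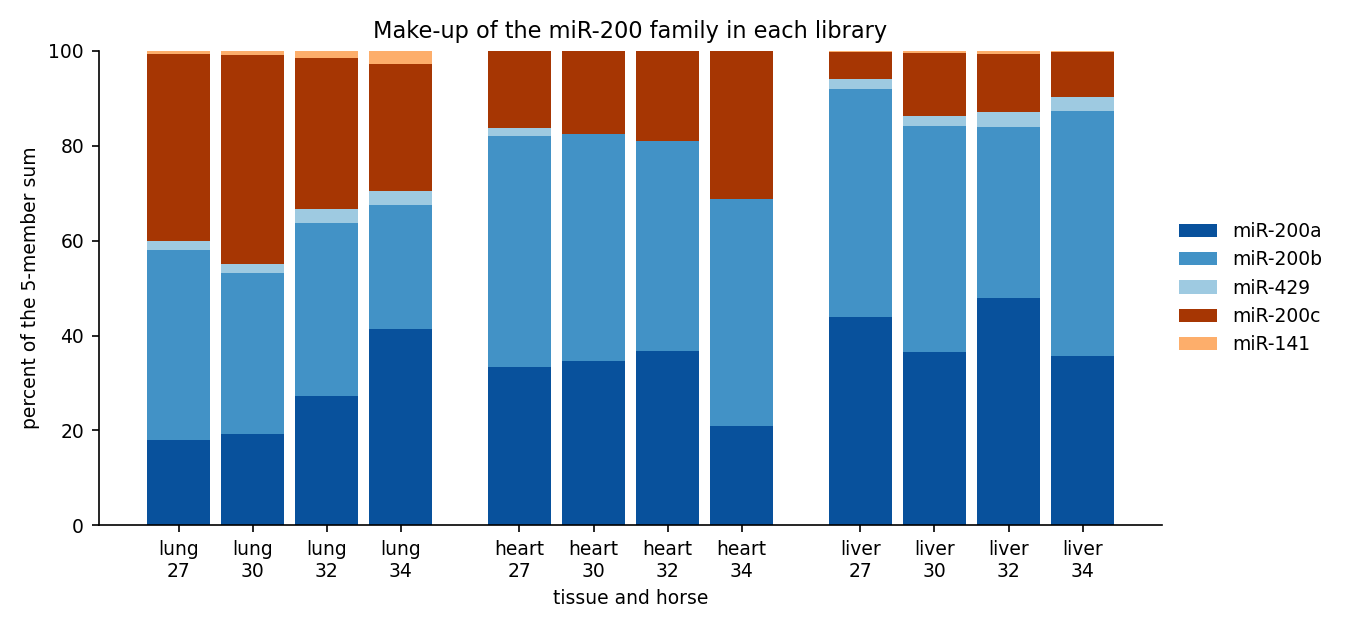
Share of each member in the summed normalized counts of the 5 miR-200 family members, 1 bar per library with the tissue and the horse below it. Blue shades are the cluster of miR-200a, miR-200b and miR-429 and orange shades that of miR-200c and miR-141, whose share is 29.5 to 45.0% in lung, 16.2 to 31.2% in heart and 5.98 to 13.8% in liver.

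Of 21 ratios between members and tissues that were planned, 15 had values above 0 in all libraries compared. Each was tested with an exact two-sided permutation test of 4 against 4 libraries, whose smallest possible p is 0.0286, and adjusted over the 15. None had an adjusted p under 0.05 (0 of 15; the lowest was 0.0857), while 5 reached the smallest possible unadjusted p. An adjusted p under 0.05 was possible only if most of the 15 reached that smallest p together. The absence of one thus says little about any single ratio.

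The ratio across clusters, miR-200c over miR-200b, was 0.985, 1.30, 0.872 and 1.03 in the lungs of horses 27, 30, 32 and 34, 0.333, 0.370, 0.431 and 0.654 in their hearts, and 0.119, 0.282, 0.341 and 0.185 in their livers. Lung was above every heart and every liver value. The geometric mean in lung was 2.40-fold that in heart and 4.82-fold that in liver (exact permutation p = 0.0286 and adjusted p = 0.0857 for each, higher in 4 of 4 horses), and heart was 2.01-fold liver with 1 overlapping pair of values (exact p = 0.0571, adjusted p = 0.107). The ratio of the whole cluster sums also had its highest geometric mean in lung and its lowest in liver, but other tissues overlapped. It was 0.670, 0.818, 0.501 and 0.419 in lung, 0.194, 0.214, 0.235 and 0.454 in heart, and 0.0636, 0.160, 0.149 and 0.109 in liver. Lung was 5.14-fold and heart 2.27-fold above liver by geometric means, both without overlap (exact permutation p = 0.0286, adjusted p = 0.0857). Lung was 2.26-fold above heart with overlapping values (exact permutation p = 0.0571, adjusted p = 0.107, higher in 3 of 4 horses), as the heart of horse 34 (0.454) exceeded the lung of the same horse (0.419).

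Within a cluster, the ratios that could be formed in all libraries compared overlapped between tissues. The ratio of miR-200a over miR-200b had geometric means of 0.741 in lung, 0.654 in heart and 0.896 in liver, and all 3 pairs of tissues overlapped (lowest exact permutation p = 0.171). For miR-429 over miR-200b the geometric means were 0.0689 in lung and 0.0547 in liver (exact permutation p = 0.429). For miR-141 over miR-200c they were 0.0364 in lung and 0.0387 in liver (exact permutation p = 0.914), a log2 difference of -0.089 with SDs of 1.26 in lung and 0.44 in liver. The ratios with miR-429 and miR-141 on top could not be formed in hearts at 0. For miR-429 over miR-200b, the heart of horse 27 had 0.0364, below every lung and liver. With 1 added to each part, the hearts lay below all lungs and all livers (exact permutation p = 0.0286, adjusted p = 0.075 for each). For miR-141 over miR-200c they then lay below all livers (the same p) and overlapped with lung (exact permutation p = 0.0857). In hearts at 0 these values are set by the added 1.

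Split by seed, the sum of miR-200a and miR-141 over the sum of miR-200b, miR-200c and miR-429 was 0.230, 0.249, 0.405 and 0.797 in lung, 0.499, 0.532, 0.583 and 0.266 in heart, and 0.791, 0.586, 0.948 and 0.560 in liver. Tissues overlapped in all 3 comparisons (lowest exact permutation p = 0.0571, adjusted p = 0.107, heart vs liver). The lung of horse 34 lay within the liver range and the heart of horse 34 near the lowest lungs.

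eca-miR-205 against the 5 family members took yet another order. The ratio was 0.00422, 0.00676, 0.0165 and 0.0109 in lung, 0.0668, 0.104, 0.0368 and 0 in heart, and 0.00173, 0.000817, 0.00188 and 0.000862 in liver. Lung was 6.88-fold above liver by geometric means and did not overlap with it (exact permutation p = 0.0286, adjusted p = 0.0857). The 3 hearts with eca-miR-205 above 0 each had a higher ratio than every lung, and the heart of horse 34, at fewer than 6 reads, had a ratio of at most 0.010. With 1 added to each part, lung vs heart had an exact permutation p of 0.457.

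**Figure D4:**
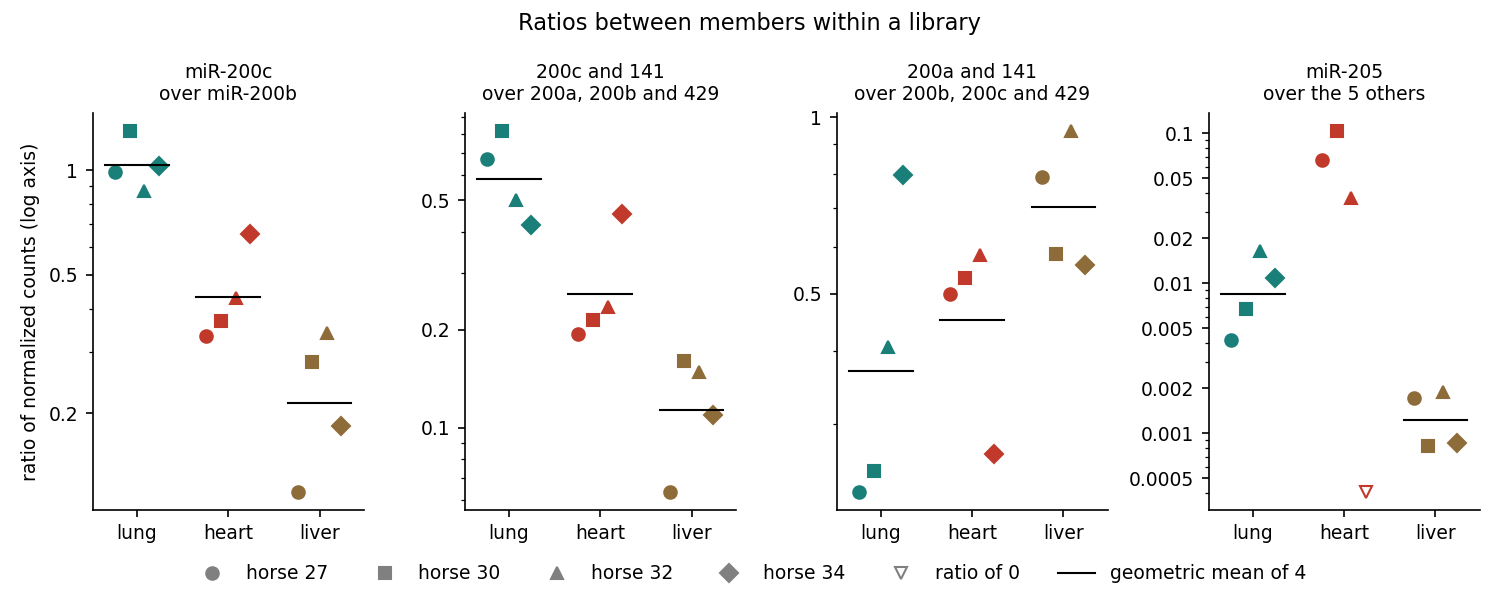
Ratios of normalized counts within a library (log axes) in lung, heart and liver for 4 pairs of members or sums. Symbols give the horse, lines the geometric mean of 4 where all are above 0, and the open triangle the heart of horse 34, where miR-205 was at 0. The ratios across clusters lie highest in lung and lowest in liver by geometric mean, the ratio by seed overlaps between tissues, and 3 hearts have the highest ratios of miR-205 to the family.

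The lungs differed from one another in a way that cut across the clusters. eca-miR-200a, eca-miR-141 and eca-miR-429 had their highest lung value in horse 34 and their lowest in horse 27, with highest over lowest of 2.43, 4.33 and 1.71. eca-miR-200b and eca-miR-200c had their lowest lung value in horse 34 and their highest in horse 30, with highest over lowest of 1.56 and 1.97. eca-miR-205 was lowest in horse 27 and highest in horse 32 (4.24-fold). The sum of the family hid this spread, since it varied by an SD of 7178 around 72812 while eca-miR-141 had a coefficient of variation of 64.3%.

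Over the 243 tested miRNAs above 0 in lung, 30.5% had their highest value in horse 34 and 33.3% their lowest, so that an extreme value in this library, which had the fewest reads of the lungs (3536536), was common. The summed miRNAs of multiciliated cells were 18721, 26203, 36804 and 51192 in the lungs of horses 27, 30, 32 and 34, the same order of horses as for eca-miR-200a, eca-miR-141 and eca-miR-429. Of the 3 miRNAs in that sum, miR-34c and miR-34b-5p had this order, and miR-449a did not, with 513, 1234, 1557 and 583. The other epithelial miRNAs (miR-31, miR-183, miR-182 and miR-96) summed to 3223, 3211, 4434 and 2169 there, lowest in horse 34. The part of ciliated cells and of depth in the differences between lungs was not tested.

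**Figure D5:**
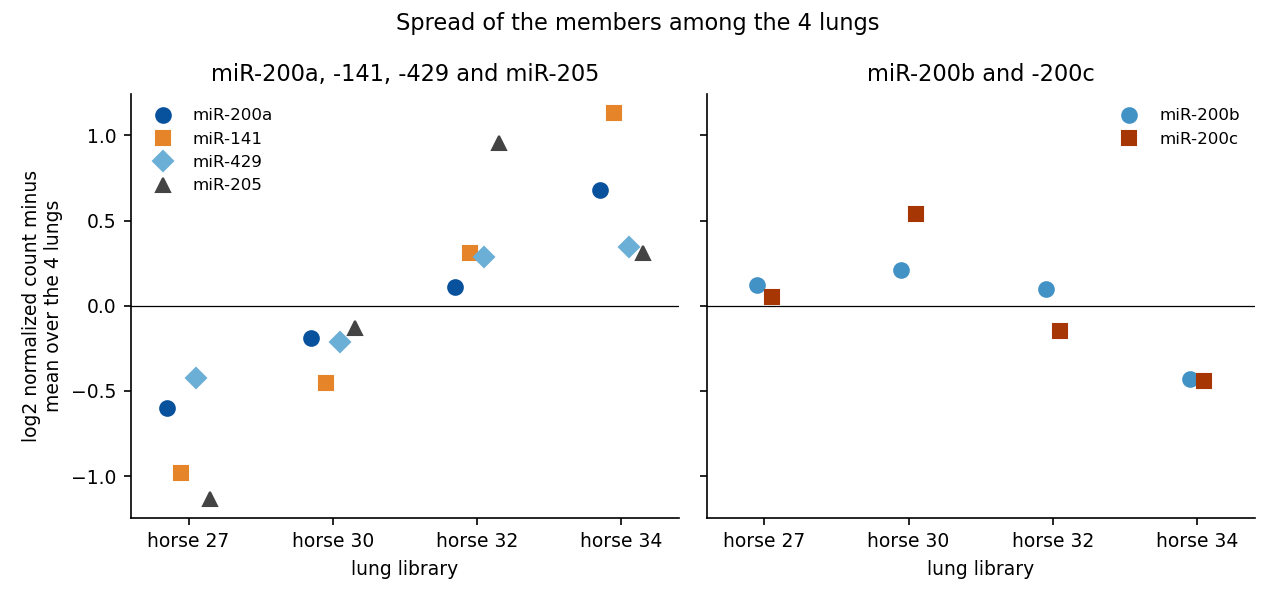
Log2 normalized count of each member in the 4 lungs, minus the member's mean over the 4 lungs, with miR-200a, miR-141, miR-429 and miR-205 on the left and miR-200b and miR-200c on the right. Each symbol is 1 lung library. The lung of horse 34 is the highest for miR-200a, miR-141 and miR-429 and the lowest for miR-200b and miR-200c.

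The hearts also differed from one another. The 5-member sum was 911 and 1008 normalized counts in the hearts of horses 27 and 34, and 287 and 364 in those of horses 30 and 32. The miRNAs of multiciliated cells, which cardiac muscle is not known for, went the same way, with 402 and 325 in horses 27 and 34 and 17.8 and 50.3 in horses 30 and 32. The other epithelial miRNAs summed to 134 and 153 in horses 27 and 34 and 87.7 and 69.3 in horses 30 and 32. The hepatocyte miRNAs were at 1328 and 3278 in horses 27 and 34 and 847 and 1199 in horses 30 and 32. Over the 235 tested miRNAs above 0 in heart, 33.2% and 37.9% had their highest value in horses 27 and 34, against 14.0% and 14.9% in horses 30 and 32, so that a higher value in those hearts was common. For the whole lists, the multiciliated sum ranged over 18721 to 51192 in lung, 17.8 to 402 in heart and 0 to 118 in liver. The part of RNA from other tissue in the heart values of the family was not tested.

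The other epithelial list, chosen for comparison, moved partly with the family. Of its 6 miRNAs, 4 were in the table by name and were tested, and the counts cover these 4 only. No entry carried the names miR-203 or miR-375. The entries given as bare sequences were not matched to names and may hold them. In lung vs heart 3 of the 4 were called higher and none lower, in lung vs liver 3 higher and 1 lower, and in heart vs liver 4 lower and none higher, with median log2 fold changes of 6.12, 3.19 and -3.71. The miRNA that went the other way was miR-31, known from keratinocytes and other epithelia, which averaged 91.0 ± 38.6 in lung, 47.3 ± 20.5 in heart and 1912 ± 561 in liver (SD, n = 4 each). Of the 3 multiciliated miRNAs, 3 were called higher in lung in both lung comparisons and none in heart vs liver. Of the 5 striated muscle miRNAs tested, 5 were called lower in lung vs heart, and 3 were called higher in lung vs liver. Of the 3 hepatocyte miRNAs, 3 were called lower in lung vs liver.

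Likeness of pattern was measured as the root mean square difference of log2(normalized count + 1), centred on each miRNA's mean, over the 12 libraries, and is a description with no test. The members nearest to each other were eca-miR-200a and eca-miR-200b, at 0.53. eca-miR-200c was nearest to eca-miR-200b (1.02), eca-miR-429 to eca-miR-141 (1.36) and eca-miR-141 to eca-miR-200c (1.34), while eca-miR-205 was at least 2.27 from every other member. On CPM, where the added 1 again stands for more normalized counts, this order turned. There eca-miR-200a and eca-miR-429 were the nearest pair (0.34, against 0.52 for eca-miR-200a and eca-miR-200b). eca-miR-429 was at 1.02 from eca-miR-141, eca-miR-200c was nearest to eca-miR-141 (0.99), and eca-miR-205 was at 1.33 from eca-miR-141. Outside the family, miR-96, miR-182 and miR-183, which lie together in a cluster in human and mouse and are known from sensory and other epithelia, were each among the 3 nearest of 4 members. miR-182 was at 0.54 from eca-miR-200b and miR-96 at 0.59 from eca-miR-200a.

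miR-182 had 1563, 1858, 2301 and 1004 normalized counts in the lungs of horses 27, 30, 32 and 34, 51.0, 10.4, 16.8 and 72.3 in their hearts, and 154, 191, 111 and 143 in their livers. Like eca-miR-200b it was lowest in the lung of horse 34, and its hearts of horses 27 and 34 were the higher ones. miR-183 averaged 1290 ± 416 in lung, 26.2 ± 21.4 in heart and 110.4 ± 34.9 in liver, and miR-96 averaged 197 ± 105 in lung and 21.4 ± 3.9 in liver and was at 0 in all 4 hearts. miR-138 was among the 3 nearest of eca-miR-200c and eca-miR-141, with 356 ± 195 in lung, 0 in all hearts and 5.55 ± 4.01 in liver. miR-187, among the 3 nearest of eca-miR-429, differed from it in lung vs liver, with 54.4 ± 16.1 in lung and 54.7 ± 28.5 in liver, and was at 0 in all hearts.

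The nearest to eca-miR-205 were none of these. miR-92b, at a difference of 1.49, averaged 1490 ± 190 in lung, 39.7 ± 9.0 in heart and 41.2 ± 5.9 in liver. miR-153 (1.51) had 12.9, 12.4, 37.9 and 47.5 in the lungs of horses 27, 30, 32 and 34 and was at 0 in all hearts and livers. miR-449a (2.09), known from multiciliated cells, had 513, 1234, 1557 and 583 in lung, 14.9, 0, 0 and 0 in heart, and 0, 8.85, 0 and 3.96 in liver. As for eca-miR-205, the lung of horse 32 was the highest and that of horse 27 the lowest for both miR-449a and miR-92b. On CPM, 13 of the 18 names of nearest miRNAs stayed among the 3 nearest.

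Among the entries named by sequence, the following were nearest to members. They are shown because the sequence is the only identity that the table gives them; they were chosen after their values were seen, capitals mark bases 2 to 8, and they are written 5′ to 3′.
nearest to eca-miR-200b: gUGAAAUGuuuaggaccacuaga
nearest to eca-miR-429 and eca-miR-141: uGUGCAUGugugcauguaggcagg
nearest to eca-miR-205: uCACCUGGacuccacgcgucuc

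The sequence nearest to eca-miR-200b, at 1.16, was also the nearest of these entries to eca-miR-200a (1.28) and eca-miR-200c (1.99). It had 4230, 3033, 3157 and 2069 normalized counts in the lungs of horses 27, 30, 32 and 34, 234, 149, 160 and 269 in their hearts, and 1800, 2065, 1101 and 1005 in their livers. Its lungs were highest in horse 27 and lowest in horse 34, and its hearts of horses 27 and 34 were again the higher ones. In the limma fit with these entries included, it was called higher in lung than in heart (log2 fold change 3.94, adjusted p = 1.47e-06) and than in liver (1.09, adjusted p = 0.0138). The sequence nearest to eca-miR-429 and eca-miR-141 had 32.3 to 63.4 in lung, 0 in all hearts and 18.5 to 105 in liver, and its lung vs liver difference was not called (log2 fold change -0.13, adjusted p = 0.907). The sequence nearest to eca-miR-205 stayed between 9.12 and 21.7 in lung, with 12.4 in the heart of horse 27 and 0 in the other hearts and in all livers.

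eca-miR-3548, whose gene overlaps MIR200A and which was looked at for that reason, was likewise highest in lung but had its lowest values in liver and not in heart. It had 184, 150, 145 and 131 normalized counts in the lungs of horses 27, 30, 32 and 34, 90.8, 104, 111 and 57.2 in their hearts, and 38.8, 37.8, 35.2 and 29.1 in their livers. In lung vs heart its log2 fold change of 0.78 (SE 0.26, adjusted p = 0.0318) stayed under the fold minimum, against 6.72 for eca-miR-200a. In lung vs liver it was called higher in lung (2.08, SE 0.26, adjusted p = 4.11e-05), as was eca-miR-200a (2.81), and in heart vs liver it was called higher in heart (1.30, SE 0.26, adjusted p = 0.0013), where eca-miR-200a was called lower.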

How the data were processed

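Small RNA of lung, heart and liver from 4 horses was measured in 12 libraries. The deposited values are a signal: counts that the authors normalized by dividing each library by a DESeq2 size factor. By the study's methods, reads were counted with sRNAbench against miRBase at a minimum of 6 reads (genome EquCab3.0), whereas the submitters' processing notes name BWA. The table's columns of the authors' own comparison were not used. The step of a library was set as its smallest value above 0 divided by 6. Divided by it, 100% of values came within 0.01 of whole reads, which gave the depth (3066869 to 9355513 reads per library).

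Known miRNAs that reached 10 normalized counts in 4 or more libraries (256) were tested with limma 3.58.1 (R 4.3.3; trend, 1 mean per tissue), checked on simulated data. Ratios within a library were compared with exact permutation tests (Python 3.11.15, numpy 2.4.6). Named were the 6 members, the 3 nearest profiles of each, and listed miRNAs by counts. The members, lists and tests were chosen with earlier results of these data known. Alternatives were other pseudocounts (0.5 and 10), filters and scalings (CPM, TMM), sequence entries included, no fold minimum, the horse as a block, and each horse or library left out. The horse numbers pair the samples, since a number is 1 animal. Deviations from tissue means correlated between -0.27 and 0.15 in 12 pairs of libraries of the same horse and between -0.27 and 0.36 in 36 pairs of different horses.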

Additional observations from a re-analysis of the deposited data

Results flagged for a closer look

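In all, 39 groups of 4 libraries were checked (6 members and 7 ratios in 3 tissues). In 3 of them, 1 library lay far from the other 3 by Dixon's criterion. The criterion's rate of about 1 in 20 holds for independent groups of normal values. It does not carry over here, since the ratios reuse the members and some values are listed at 0. With 3 libraries at 0, any value above 0 in the other meets the criterion. In heart, eca-miR-429 had 16.2 normalized counts in horse 27 and 0 in horses 30, 32 and 34, and the ratio of miR-429 over miR-200b was 0.0364 in horse 27 and 0 in the others for the same reason. Also in heart, the ratio of miR-200c and miR-141 over miR-200a, miR-200b and miR-429 was 0.454 in horse 34, against 0.194, 0.214 and 0.235 in horses 27, 30 and 32.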

How the results depend on the processing

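All 6 members stayed called higher in lung in both lung comparisons, and the 5 members of the miR-200 family lower in heart vs liver, under every alternative run, with the replicate block (horse) included: with that block, 48 and 49 miRNAs were called higher and lower in lung vs heart, 63 and 68 in lung vs liver, and 48 and 68 in heart vs liver. The block changed no call of a member. For the ratios, 0 had an adjusted p under 0.05 with 1 added to each part. There too, most ratios would have had to reach the smallest possible p together, so that this 0 says little about stability. The replicate block (sign flips within horses) and leaving out a horse also gave 0, but their smallest possible p of 0.125 and 0.1 fixed this beforehand, so that these 2 alternatives say nothing about stability.

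Rescaling to CPM moved the median of all tested miRNAs by 1.03, 0.11 and -0.99 on the log2 scale in lung vs heart, lung vs liver and heart vs liver. It changed the calls in lung vs heart to 121 higher and 16 lower, against 50 and 49 on the deposited scale, and in heart vs liver to 27 higher and 137 lower, against 51 and 69. The members' log2 fold changes on CPM were 7.95 (eca-miR-200a), 7.81 (eca-miR-200b), 8.97 (eca-miR-200c), 8.15 (eca-miR-429) and 7.62 (eca-miR-141) in lung vs heart. The 1 was added after rescaling and so stood for more normalized counts, most in hearts. Totals were 10173013 to 15323695 normalized counts in heart and 4001128 to 5304567 in lung. For eca-miR-429 and eca-miR-141, with hearts at 0, the CPM values thus hold a change of the added constant as well as of the scaling. With a pseudocount of 10, eca-miR-141 and eca-miR-429 had log2 fold changes of -1.78 and -3.72 in heart vs liver, and eca-miR-205 had 4.46 in lung vs heart and 5.10 in lung vs liver.

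With single horses or libraries left out, 43 to 53 miRNAs were called higher and 42 to 52 lower in lung vs heart, 51 to 65 and 63 to 71 in lung vs liver, and 43 to 55 and 59 to 73 in heart vs liver, and 0 to 1 members were called higher in heart vs liver. That 1 was eca-miR-205 (1.76 without the heart of horse 34), whose estimate turned to -0.0056 without horse 27, -0.026 without horse 30 and -0.22 without the heart of horse 27; the spread of its 4 hearts (0 to 49 reads) sets this limit. A test on reads (edgeR) was not run, since raw counts were not used here, and sequence entries could not be matched to members' hairpins.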

Other observations

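Over the 12 libraries, the range of a member among horses of a tissue was narrowest for eca-miR-429 in liver (144.8 to 180.7 normalized counts, a coefficient of variation of 9.81%) and wide for eca-miR-200c in heart (50.5 to 314.6, 82.6%). In liver, eca-miR-200a, eca-miR-200b and eca-miR-205 had their highest value in horse 27, and eca-miR-200a, eca-miR-141 and eca-miR-205 their lowest in horse 34. The liver of horse 27 had the fewest reads (3066869), so that the 7 reads of eca-miR-205 there gave 12.9 normalized counts, against 4.62 for the 7 reads in the liver of horse 34.

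A further entry named by its sequence was among the nearest to eca-miR-205, at a difference of 1.77. It had 21.7, 9.27, 21.0 and 69.0 normalized counts in the lungs of horses 27, 30, 32 and 34, 18.6 in the heart of horse 27, 7.34 in the liver of horse 32, and 0 in all other hearts and livers.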
